A study of Mus musculus with 8 samples.

Results

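The type I interferon antiviral effectors are a set of 36 genes, of 55414 in the count table, whose products block viral entry, replication or translation, or tag, sense and degrade viral material. They were chosen by function, as named genes of the Ifit, Oas and Mx families, the ISG15 system, cytosolic nucleic acid sensors, nucleotide and RNA enzymes, membrane restriction factors, PARP proteins with their partners, and other interferon-induced genes, with the chemokine gene Cxcl10. The choice was made with earlier results of these data known. Counts of effectors set beside all genes therefore describe the set and do not test it. All 36 were found by symbol and all 36 passed the filter on low counts. In type I interferon signalling, an infected or stressed cell releases interferon alpha or beta, which binds the receptor made of Ifnar1 and Ifnar2. The kinases Jak1 and Tyk2 then phosphorylate transcription factors, among them Stat2, which together with Irf9 bind interferon-stimulated response elements (ISREs) in the promoters of effector genes. Macrophages are a major source of interferon and also respond to it, and Irf7, itself induced by interferon, amplifies the loop.

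The values come from bulk RNA sequencing of macrophages from mouse skin wounds, with 5 libraries (a to e) taken 3 days after injury and 3 libraries (a to c) taken 1 day after injury. The cells of both days were freed from excised wound beds by collagenase digestion and picked with magnetic beads that bind F4/80, the product of the macrophage gene Adgre1. Each library pooled 6 wounds from 3 mice, the protocol speaks of 6 samples per time point, and 8 libraries were analysed here. No genotype, strain, age or sex of the mice, kind of injury or agent is given in the labels. They also leave unsaid whether 1 mouse contributed to several pools, so each p-value refers to the spread between pools.

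Total counts lay between 50515389 and 56661695 at day 3 and between 41566151 and 60289310 at day 1. Between 14952 and 20557 genes had a count in the day 3 libraries, and between 23928 and 27315 in the day 1 libraries. Adgre1 had 994 to 1181 CPM (TMM-normalised, as are all CPM here) at day 3 and 689 to 940 CPM at day 1, and 10 macrophage markers summed to between 29219 and 36232 CPM at day 3 and between 17670 and 20393 CPM at day 1. Lyz2 alone made up 15661 to 23432 CPM of that sum at day 3 and 6717 to 9897 CPM at day 1, and the other 9 macrophage markers overlapped, with 11131 to 13558 CPM at day 3 and 10496 to 11475 CPM at day 1. The 8 inflammatory monocyte markers summed to between 2111 and 2658 CPM at day 3 and between 3323 and 4319 CPM at day 1. The 9 T and NK cell markers summed to at most 9.17 CPM at day 3 and 10.02 CPM at day 1. One day 3 library, b, stood apart from the rest of its day in neutrophil markers, which is taken up beside the effectors below.

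The printed promoters show where matches to the core letters of the ISRE lie in 4 effectors with large differences between the days. They also show 1 such effector, Oasl1, without a match. They are a selection: Cmpk2 and Isg20, with log2 fold changes of -1.77 and -1.50, had no match either and are not printed. Each window runs from 250 bases before to 50 bases after the RefSeq start site of the gene on GRCm38.p6 and is written 5′ to 3′ on the gene's own strand. Capitals mark matches to the ISRE core GAAANNGAAA on either strand, where N is any base.
Isg15 (chr4:156200769-156201068, minus strand): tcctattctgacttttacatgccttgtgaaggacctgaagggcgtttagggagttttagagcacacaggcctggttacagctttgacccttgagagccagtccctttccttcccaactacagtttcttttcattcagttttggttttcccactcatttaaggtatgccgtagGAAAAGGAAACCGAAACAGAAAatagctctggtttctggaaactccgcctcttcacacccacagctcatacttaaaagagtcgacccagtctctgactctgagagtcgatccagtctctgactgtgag
Ifit1 (chr19:34640639-34640938, plus strand): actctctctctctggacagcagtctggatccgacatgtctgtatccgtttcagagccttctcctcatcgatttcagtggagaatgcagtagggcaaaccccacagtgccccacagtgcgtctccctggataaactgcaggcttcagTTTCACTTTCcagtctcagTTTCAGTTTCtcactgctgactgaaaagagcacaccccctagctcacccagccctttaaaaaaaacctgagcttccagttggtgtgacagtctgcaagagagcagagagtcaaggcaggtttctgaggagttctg
Rsad2 (chr12:26456403-26456702, minus strand): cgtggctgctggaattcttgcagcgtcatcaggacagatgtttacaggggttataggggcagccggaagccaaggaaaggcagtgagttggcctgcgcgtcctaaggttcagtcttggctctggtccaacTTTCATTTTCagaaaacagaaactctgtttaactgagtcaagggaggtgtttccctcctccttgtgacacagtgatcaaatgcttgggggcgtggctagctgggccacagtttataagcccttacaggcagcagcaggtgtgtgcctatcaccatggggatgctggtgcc
Cxcl10 (chr5:92348840-92349139, minus strand): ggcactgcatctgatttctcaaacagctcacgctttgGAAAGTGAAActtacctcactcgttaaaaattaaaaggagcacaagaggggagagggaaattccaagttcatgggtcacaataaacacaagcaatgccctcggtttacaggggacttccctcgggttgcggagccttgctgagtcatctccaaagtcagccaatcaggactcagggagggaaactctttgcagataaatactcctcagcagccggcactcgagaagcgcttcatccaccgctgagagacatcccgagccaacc
Oasl1 (chr5:114922990-114923289, plus strand): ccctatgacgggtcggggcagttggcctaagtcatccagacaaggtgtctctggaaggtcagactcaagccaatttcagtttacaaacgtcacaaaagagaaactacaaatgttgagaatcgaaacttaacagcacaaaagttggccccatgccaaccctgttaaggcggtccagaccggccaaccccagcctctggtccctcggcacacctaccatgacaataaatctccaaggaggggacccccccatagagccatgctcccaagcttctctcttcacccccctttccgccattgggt
In Isg15 the capitals are a run of overlapping cores, the first at -78 and the last at -66 from the start site. Ifit1 has cores at -104 and -85, and Rsad2 has 1 at -120, all on the opposite strand, so that the printed letters are the reverse complement of the core. Cxcl10 has 1 at -213, and Oasl1 has none in this window.

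Of the 36 effectors, 26 had a promoter window in the RefSeq table, and 15 of these (57.7%) held an ISRE core on at least 1 strand. Of all 32851 windows in the table, 1131 (3.44%) held one, and of all 27025 genes with a window 1079 (3.99%) did. The effectors without a match in their windows were Ifit2, Oasl1, Oasl2, Herc6, Trim25, Cmpk2, Samhd1, Isg20, Ifi35, Ifi44 and Xaf1. The motif TTCNNNGAA, which reads the same on both strands and is known as the gamma-activated site (GAS), was in the windows of 8 of the 26 effectors (30.8%) and in 2582 of all 27025 genes (9.55%). Matches to the motifs overlapped in Bst2 and Ifitm3. A match only describes these letters in these windows.

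Every effector had a lower mean level at day 3 than at day 1, as fitted, but none passed edgeR's quasi-likelihood test at a Benjamini-Hochberg adjusted p of 0.05, with 15371 genes in the adjustment. The median log2 fold change, day 3 minus day 1, was -0.94 over the 36 effectors, with a range of -1.95 to -0.14, against -0.17 over all genes tested. A log2 fold change below 0 was found for 36 of 36 effectors and for 8782 of the 15371 genes. The test at an adjusted p of 0.05 called 0 effectors and 0.0130% of all genes (2 genes, either direction). At an unadjusted p of 0.05, 28 of the 36 effectors (77.8%) were lower at day 3, against 10.5% of all genes. The 5 day 3 values all lay below the 3 day 1 values for 22 effectors (61.1%), against 8.76% of all genes; days in this state are called apart in what follows. No effector was higher at day 3 by any of these counts. In bulk samples such as these, fewer cells of a type and less RNA per cell cannot be told apart.

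The adjusted p of the effectors began at 0.0603. At a threshold of 0.1, taken after the values had been seen, 19 effectors (52.8%) were lower at day 3, against 3.60% of all genes. Other settings of the test called some effectors at 0.05, in each case lower at day 3. DESeq2 called 22 effectors (61.1%), against 4.29% of all genes, and limma voom called 13 (36.1%), against 4.40%. With a stricter filter on low values, which kept 8142 genes and all 36 effectors, edgeR called Oasl1, Isg15, Dhx58, Zbp1, Rsad2 and Cmpk2, that is 6 of 36 (16.7%), against 1.02% of the genes kept. With no filter on low counts edgeR called 22 effectors (61.1%), against 2.95% of the 38518 genes then tested. In that fit the median log2 fold change of all genes lay below that of the effectors. With halved counts edgeR called 2 (5.56%), against 0.166%. Without day 3 library b it called 1 effector, Cmpk2 (2.78%), against 0.174% of all genes, and without day 1 library b it called 1, Dhx58, against 0.196%.

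**Figure D1:**
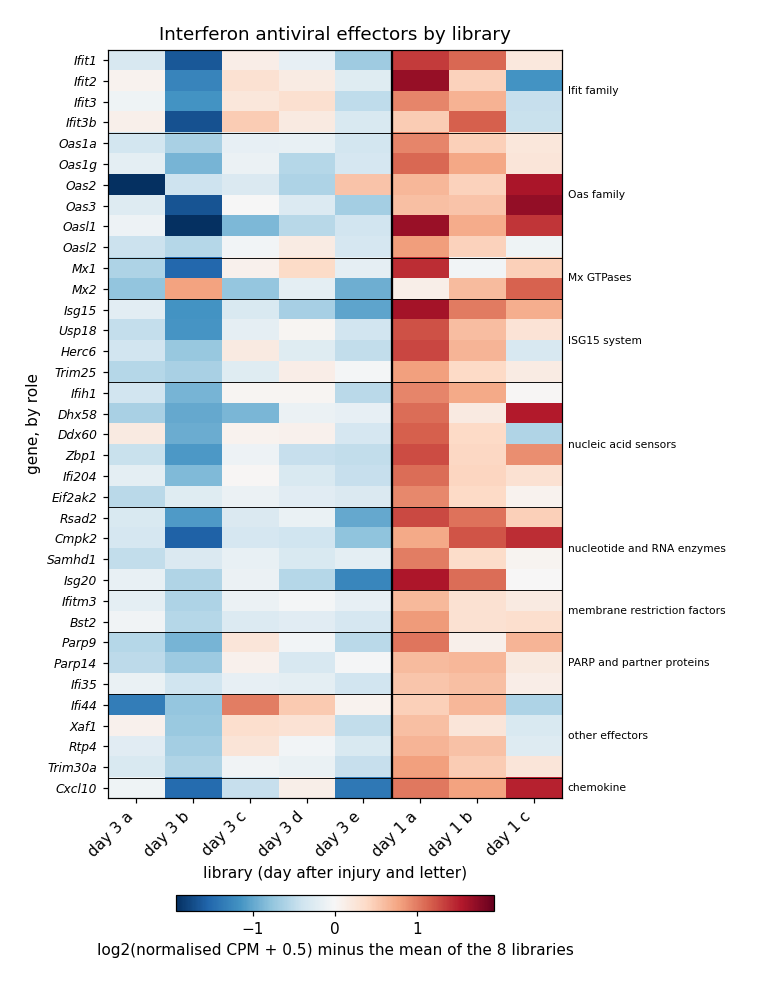
Level of each of the 36 effectors (rows, by role) in each library (columns, day 3 left of day 1), as log2(normalised CPM + 0.5) minus the gene's mean over the 8 libraries. Blue cells, below the gene's mean, fill most of the day 3 columns and red cells most of the day 1 columns; day 3 library b was lowest for 30 effectors and day 1 library a highest for 26.

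**Figure D2:**
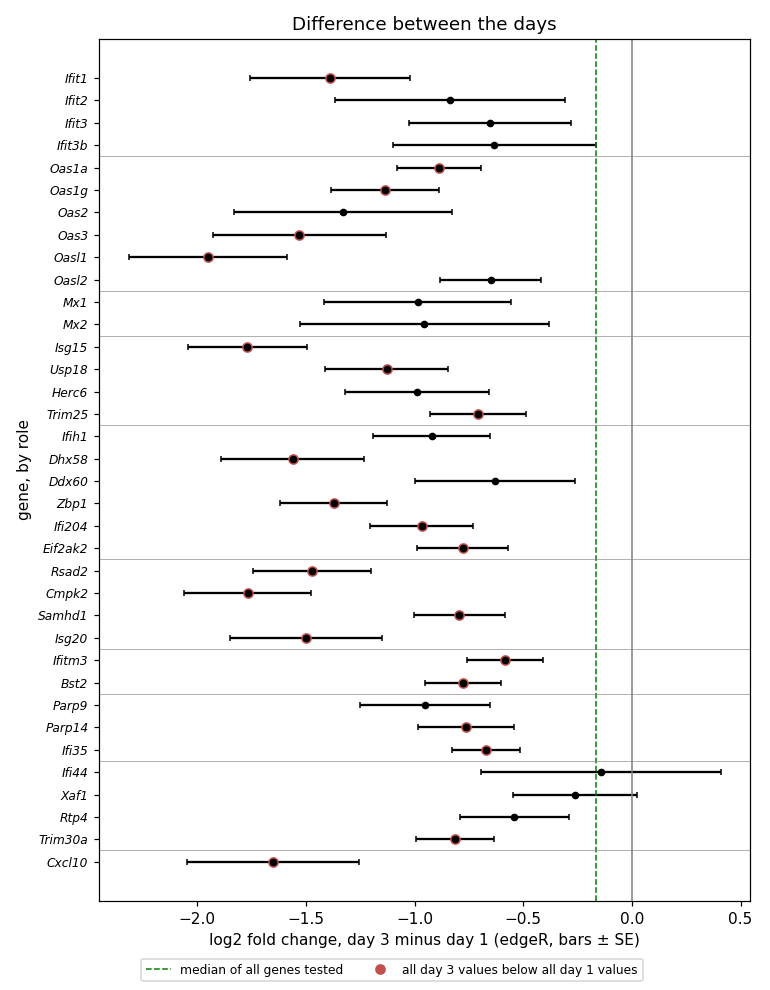
Log2 fold change, day 3 minus day 1, of each of the 36 effectors (edgeR, points with bars of ± 1 SE), with the median of all genes tested as a dashed line. Every point lies left of 0, from -1.95 for Oasl1 to -0.14 for Ifi44, and red rings mark the 22 genes whose day 3 values were all below their day 1 values.

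The Ifit proteins bind viral RNA with foreign ends and keep it from being translated. Of the 4 Ifit genes, which lie together on chromosome 19, 1 had days that did not overlap, and the median log2 fold change was -0.75. Ifit1 (chr19:34618271-34627409 on GRCm39), the best studied of them and one of the promoters printed above, had 230.0, 91.9, 313, 256 and 178 CPM in day 3 libraries a to e, against 729.9, 619 and 332 CPM in day 1 libraries a to c. The lowest day 1 library thus stood just above the highest day 3 library. For Ifit1, edgeR gave a log2 fold change of -1.39 ± 0.37 (SE) and an adjusted p of 0.0934. Ifit2 had 517, 204, 605, 552 and 419.6 CPM in day 3 libraries a to e, against 1574, 669 and 222 CPM in day 1 libraries a to c. Ifit3, which stabilises Ifit1 complexes in human cells, had 324, 153, 400.0, 425 and 245 CPM in day 3 libraries a to e, against 660.2, 547 and 251 CPM in day 1 libraries a to c. In both genes day 1 library c was within the day 3 range and day 1 library a was the highest of all. For Ifit2, edgeR gave a log2 fold change of -0.84 ± 0.53 (SE) and an adjusted p of 0.511, and without day 1 library a the log2 fold change was 0.039, so the direction for Ifit2 rests on 1 library. Ifit3 had a log2 fold change of -0.65 ± 0.37 (SE), with an adjusted p of 0.454 in edgeR, and -0.38 without day 1 library a. Its near copy Ifit3b averaged 50.2 ± 22.1 CPM at day 3 and 77.8 ± 39.9 CPM at day 1 (SD, n = 5 and 3). Its log2 fold change was -0.63 ± 0.47 (adjusted p of 0.586 in edgeR), and -0.18 without day 1 library b. Reads that match Ifit3 and Ifit3b equally may be lost or placed in either, so the split between them is uncertain.

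Oas proteins that are active enzymes make 2′-5′ oligoadenylates when they meet double-stranded RNA, which switches on RNase L. All 6 Oas genes of the set were lower at an unadjusted p of 0.05, and 4 of them had days that did not overlap. Outside the set, Oas1b and Oas1c did not pass that threshold, and their days overlapped. Their log2 fold changes were -1.47 ± 1.09 and 0.08 ± 1.96 (SE), with an unadjusted p of 0.208 and 0.968 in edgeR. Oasl1, which in mice restrains translation of Irf7 mRNA, had the largest difference of the 36 effectors. Oasl1 (chr5:115061299-115075974) had 94.3, 26.3, 55.0, 69.6 and 78.2 CPM in day 3 libraries a to e, against 322, 166 and 262 CPM in day 1 libraries a to c. Every day 3 library was thus below every day 1 library. For Oasl1, edgeR gave a log2 fold change of -1.95 ± 0.37 (SE) and an adjusted p of 0.0726, or 0.0308 with the stricter filter. Oas1a (chr5:121034319-121045584), the most abundant of the family per length at 125 CPM per kilobase at day 3 and 230.4 at day 1, had 229, 189.8, 263, 265 and 229 CPM at day 3, against 562, 400.0 and 341 CPM at day 1. Its relative Oas1g had 59.9, 36.4, 63.0, 46.3 and 54.6 CPM at day 3, against 148, 114 and 80.1 CPM at day 1. Neither gene overlapped between the days. Oas1a had a log2 fold change of -0.89 ± 0.19 and Oas1g of -1.14 ± 0.25 (SE), with an adjusted p of 0.0829 for both in edgeR. Sequence likeness among the Oas1 copies makes the division of reads between them uncertain. Oas3 averaged 25.2 ± 9.32 CPM at day 3 and 72.8 ± 35.9 CPM at day 1, and its day 3 range of 10.7 to 34.8 CPM stayed under the day 1 minimum of 51.5 CPM. Oas2 averaged 15.1 ± 8.51 CPM at day 3 and 38.0 ± 17.3 CPM at day 1, and Oasl2, a relative with ubiquitin-like domains, 331 ± 67.2 CPM at day 3 and 519 ± 155 CPM at day 1 (SD, n = 5 and 3), both with ranges that overlapped. Their log2 fold changes were -1.53 ± 0.40 for Oas3 (adjusted p of 0.0889), -1.33 ± 0.50 for Oas2 (0.229) and -0.65 ± 0.23 for Oasl2 (0.198, all edgeR).

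Mx1 and Mx2 are dynamin-like GTPases, of which mouse Mx1 acts in the nucleus against influenza-like viruses and Mx2 in the cytoplasm. Many laboratory strains carry defective Mx genes, and the strain is not given here. Mx1 had 39.0, 20.5, 63.1, 76.6 and 52.9 CPM in day 3 libraries a to e, against 160.2, 57.3 and 82.1 CPM in day 1 libraries a to c. Mx2 had 4.02, 12.7, 4.09, 6.23 and 3.51 CPM in day 3 libraries a to e, against 7.83, 11.2 and 16.5 CPM in day 1 libraries a to c. The days overlapped in both genes, in Mx1 because day 1 library b lay among the day 3 libraries, and in Mx2 because day 3 library b was high. Mx1 had a log2 fold change of -0.99 ± 0.43 (SE; adjusted p of 0.309 in edgeR), and -0.50 without day 1 library a. Mx2 had a log2 fold change of -0.96 ± 0.57 (adjusted p of 0.482).

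Isg15 encodes a ubiquitin-like protein that is joined to other proteins and also secreted. Herc6 is the main ligase of that joining in mice, Usp18 removes Isg15 again and blocks the interferon receptor, and Trim25 is a ubiquitin ligase that activates the RNA sensor encoded by Ddx58. All 4 genes were lower at an unadjusted p of 0.05, and the days were apart in 3. Isg15 (chr4:156283912-156285253), whose promoter carries the run of ISRE cores printed above, had 291, 150.3, 273, 216 and 166 CPM in day 3 libraries a to e, against 1025, 674 and 546 CPM in day 1 libraries a to c. The highest day 3 value lay far under the lowest day 1 value. For Isg15, edgeR gave a log2 fold change of -1.77 ± 0.27 (SE) and an adjusted p of 0.0603, or 0.0263 with the stricter filter. Per length it was the second most abundant effector, with 312 CPM per kilobase at day 3 and 1064 at day 1. Usp18 had 146, 91.0, 178, 206 and 155 CPM at day 3, against 472, 305 and 242 CPM at day 1. Trim25 had 108, 101, 134, 172 and 153 CPM at day 3, against 272, 205 and 176 CPM at day 1. Both had days that were apart, with the lowest day 1 value, in library c, close to the highest day 3 value. Usp18 had a log2 fold change of -1.13 ± 0.28 (adjusted p of 0.0838) and Trim25 of -0.71 ± 0.22 (adjusted p of 0.146, both edgeR). Herc6 averaged 52.3 ± 12.7 CPM at day 3 and 104 ± 53.2 CPM at day 1 (SD, n = 5 and 3) and overlapped through day 1 library c, with a log2 fold change of -0.99 ± 0.33 (adjusted p of 0.174), or -0.57 without day 1 library a. A gene model on the same strand shares 13.7% of the Herc6 exon bases, so reads there may be lost or placed in either gene.

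Among the 6 nucleic acid sensors, 5 were lower at an unadjusted p of 0.05 and 4 had days apart. Zbp1, a sensor of Z-form nucleic acids that can start necroptosis, had 139, 87.5, 176, 138 and 135 CPM in day 3 libraries a to e, against 451, 249 and 351 CPM in day 1 libraries a to c. Dhx58 (LGP2), which tunes RNA sensing by the related helicases, had 27.8, 21.5, 23.4, 39.9 and 38.6 CPM in day 3 libraries a to e, against 92.4, 48.8 and 127 CPM in day 1 libraries a to c. Ifi204, a mouse PYHIN protein that binds DNA, had 525, 332, 608, 488 and 440.0 CPM in day 3 libraries a to e, against 1269, 802 and 735 CPM in day 1 libraries a to c. In all 3 genes each day 3 library was below each day 1 library. The log2 fold change was -1.37 ± 0.25 for Zbp1 (adjusted p of 0.0684), -1.56 ± 0.33 for Dhx58 (0.0829) and -0.97 ± 0.24 for Ifi204 (0.0829, all edgeR, ± SE). With the stricter filter the adjusted p was 0.0307 for Zbp1 and 0.0459 for Dhx58. Ifi204 has close relatives in the same cluster on chromosome 1, so its count may share reads with them, and 4.31% of the Dhx58 exon bases lie under its antisense gene. Eif2ak2, the kinase PKR that stops translation on double-stranded RNA, averaged 65.7 ± 6.68 CPM at day 3 and 113 ± 34.4 CPM at day 1, with days apart. Ifih1, the RNA sensor MDA5, averaged 108 ± 28.5 CPM at day 3 and 205 ± 62.3 CPM at day 1, and the helicase gene Ddx60 138 ± 38.5 CPM at day 3 and 213 ± 119.5 CPM at day 1 (SD, n = 5 and 3). For Eif2ak2 the log2 fold change was -0.78 ± 0.21 (adjusted p of 0.0948) and for Ifih1 -0.92 ± 0.27 (0.12, both edgeR). Ifih1 and Ddx60 overlapped through day 1 library c alone, and the log2 fold change of Ddx60, -0.63 ± 0.37, was -0.13 without day 1 library a.

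All 4 nucleotide and RNA enzymes had days apart, and their median log2 fold change was -1.49. Rsad2 (viperin) turns CTP into a chain-terminating nucleotide, and Cmpk2, a mitochondrial nucleotide kinase, supplies its substrate. They are neighbours on chromosome 12, at chr12:26492745-26506451 and chr12:26519203-26529836. Rsad2 had 451, 258, 454, 505 and 278 CPM in day 3 libraries a to e, against 1337, 1147 and 756 CPM in day 1 libraries a to c. Cmpk2 had 54.4, 22.6, 54.1, 51.8 and 39.4 CPM in day 3 libraries a to e, against 113, 159 and 183 CPM in day 1 libraries a to c. The days were widely apart in both genes, and library b was the lowest of day 3 in each. For Cmpk2, edgeR gave a log2 fold change of -1.77 ± 0.29 (SE) and an adjusted p of 0.0603, and for Rsad2 a log2 fold change of -1.47 ± 0.27 and an adjusted p of 0.0707. With the stricter filter the adjusted p was 0.0263 for Cmpk2 and 0.0308 for Rsad2. Isg20, an exonuclease that degrades single-stranded RNA, had 82.8, 61.1, 84.5, 62.0 and 37.8 CPM at day 3, against 271, 194 and 92.0 CPM at day 1. Its log2 fold change was -1.50 ± 0.35 (adjusted p of 0.0829 in edgeR), with day 1 library c close to the highest day 3 library. Samhd1, which depletes the nucleotides a reverse transcriptase needs, averaged 505 ± 44.7 CPM at day 3 and 876 ± 302 CPM at day 1 (SD, n = 5 and 3) and had the smallest difference of the 4, -0.79 ± 0.21 on the log2 scale (adjusted p of 0.0907), or -0.51 without day 1 library a.

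**Figure D3:**
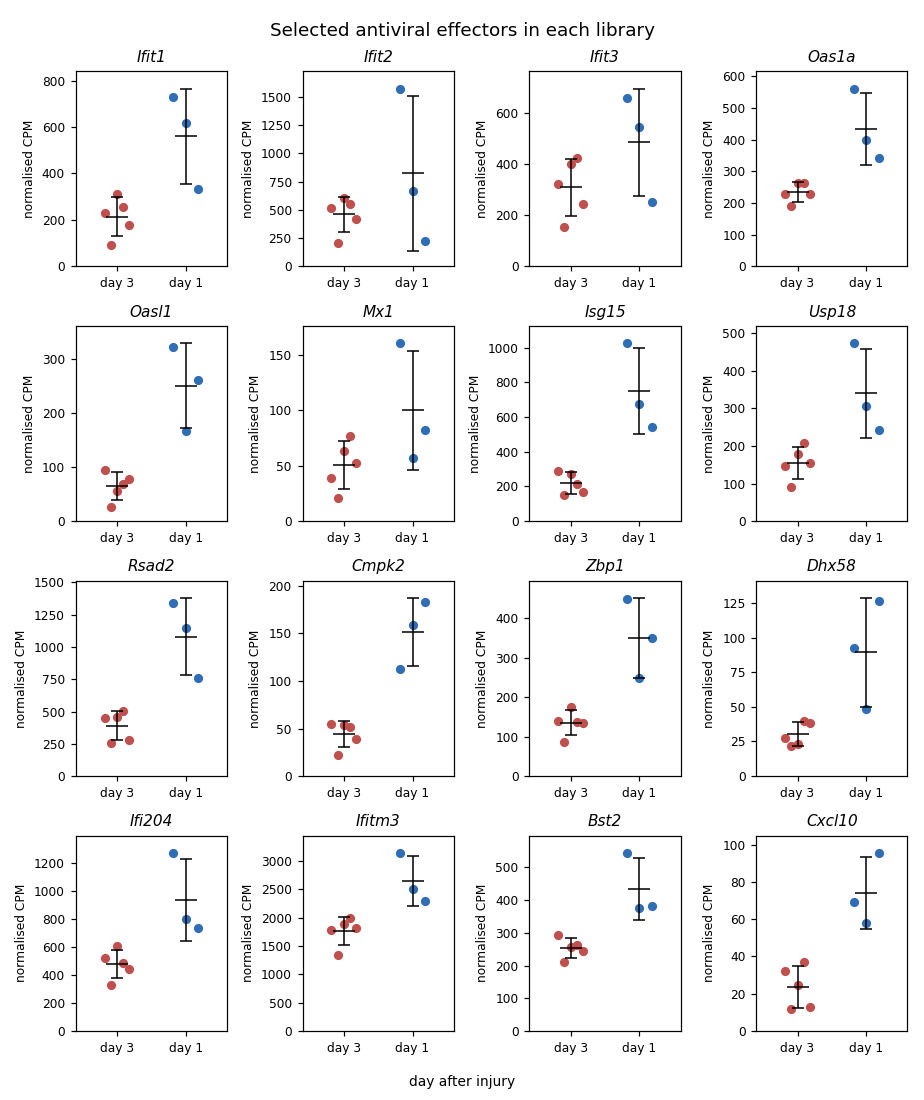
Normalised CPM of 16 effectors in each library, with day 3 (red, n = 5) left of day 1 (blue, n = 3); horizontal lines are means and bars are ± SD. In Isg15, Rsad2, Cmpk2, Zbp1, Ifi204, Ifitm3, Bst2 and Cxcl10 every day 3 point is below every day 1 point, whereas the days overlap in Ifit2, Ifit3 and Mx1.

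Ifitm3, which hardens membranes against fusion of entering viruses, was the most abundant effector per length, with 2596 CPM per kilobase at day 3 and 3890.3 at day 1. Ifitm3 had 1775, 1344, 1879.6, 1983 and 1817 CPM in day 3 libraries a to e, against 3132, 2495 and 2285 CPM in day 1 libraries a to c. Bst2 (tetherin), which holds budding virions at the cell surface and in mice also marks plasmacytoid dendritic cells, had 293, 210.1, 256, 263 and 245 CPM in day 3 libraries a to e, against 543, 376 and 383 CPM in day 1 libraries a to c. Both genes had days apart with small differences. The log2 fold change was -0.58 ± 0.18 for Ifitm3 (adjusted p of 0.132) and -0.78 ± 0.18 for Bst2 (adjusted p of 0.0829, both edgeR, ± SE). Outside the set, the relative Ifitm2 went the other way, with 783 to 876 CPM at day 3 and 557 to 695 CPM at day 1. Its log2 fold change was 0.44 ± 0.14 (SE, adjusted p of 0.156 in edgeR). Ifitm1 and Ifitm6 overlapped between the days. Of 7 plasmacytoid dendritic cell markers, Klk1 was at 0 in all libraries and Siglech ran from 0 to 2.72 CPM at day 3 and from 0.455 to 3.57 CPM at day 1; the markers summed to between 139.9 and 168 CPM at day 3 and between 98.1 and 153 CPM at day 1. Tcf4, which other cells also express, made up 129 to 163 CPM of the sum at day 3 and 92.2 to 149 CPM at day 1, and the other 6 markers together 4.49 to 10.4 CPM at day 3 and 4.46 to 8.37 CPM at day 1.

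Parp9 and Parp14 are ADP-ribosyltransferase family members that act on interferon signalling, and Ifi35 is an interferon-induced adaptor protein. Parp9 had 32.7, 25.7, 57.0, 46.3 and 33.5 CPM at day 3, against 99.1, 51.6 and 75.9 CPM at day 1. Parp14 had 55.1, 48.0, 82.9, 63.4 and 77.0 CPM at day 3, against 120.2, 123 and 89.7 CPM at day 1. Ifi35 had 138, 116, 135, 133 and 117 CPM at day 3, against 219, 226 and 166 CPM at day 1. Parp14 and Ifi35 had days apart, and Parp9 overlapped through day 1 library b. The log2 fold change was -0.95 ± 0.30 for Parp9 (adjusted p of 0.151), -0.76 ± 0.22 for Parp14 (0.116) and -0.67 ± 0.16 for Ifi35 (0.0829, all edgeR, ± SE). An opposite gene model shares 16.8% of the exon bases of Ifi35, and an opposite neighbour 9.40% of those of Parp9. Without strand, reads on these shared bases may be lost or placed in either gene.

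The remaining role group, of other interferon-induced effectors, had the median log2 fold change closest to 0, -0.40, with 1 of 4 genes lower at an unadjusted p of 0.05. Trim30a, a TRIM protein that dampens NF-kappaB signalling in mice, had 234, 193, 274, 265 and 213 CPM at day 3, against 497, 405 and 341 CPM at day 1. Rtp4, a transporter protein that restricts flaviviruses, had 521, 383, 719.7, 586 and 491 CPM at day 3, against 956, 892 and 511 CPM at day 1. A gene model on the same strand shares 13.9% of the Rtp4 exon bases. Xaf1, an interferon-induced pro-apoptotic protein, had 197, 114, 234, 225 and 133 CPM at day 3, against 279, 219 and 152 CPM at day 1. The days were apart in Trim30a, with a log2 fold change of -0.81 ± 0.18 (adjusted p of 0.0829 in edgeR). They overlapped in Rtp4 (-0.54 ± 0.25, 0.341) and in Xaf1 (-0.26 ± 0.29, 0.737), where the log2 fold change was -0.055 without day 1 library a. Ifi44 was the exception of the set, with 6.3, 9.64, 33.4, 23.8 and 17.4 CPM at day 3, against 23.1, 26.2 and 10.8 CPM at day 1. Its days overlapped throughout, its highest value was in day 3 library c, and its log2 fold change of -0.14 ± 0.55 (adjusted p of 0.936) turned to 0.076 without day 3 library a, to 0.019 without day 3 library b and to 0.097 without day 1 library b.

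Cxcl10, a chemokine that draws CXCR3-bearing T and NK cells, had 32.0, 11.8, 24.7, 36.8 and 12.7 CPM in day 3 libraries a to e, against 69.0, 58.1 and 95.3 CPM in day 1 libraries a to c. All day 3 values were below all day 1 values. For Cxcl10, edgeR gave a log2 fold change of -1.65 ± 0.40 (SE) and an adjusted p of 0.0829. Of its exon bases 5.91% are shared with Art3.

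The libraries differed among themselves in the whole set, and not only by day. The effectors took 0.791%, 0.508%, 0.899%, 0.887% and 0.723% of all counts in day 3 libraries a to e, against 1.75%, 1.33% and 1.08% in day 1 libraries a to c. As a percentage of each gene's day 1 mean, the median effector stood at 49.1, 35.2, 63.2, 60.5 and 50.7% in day 3 libraries a to e, against 129, 94.4 and 76.3% in day 1 libraries a to c. For the median of all genes tested the same values were 79.8 to 82.8% at day 3 and 91.5 to 95.5% at day 1. Day 1 library a was highest of the 8 for 26 effectors, b for 3 and c for 6, and day 3 library c for the 1 left, Ifi44. The lowest of the 8 was day 3 library b for 30 effectors, a for 4 and e for 2. Of the 14 effectors whose days overlapped, 7 did so through day 1 library c alone and 3 through day 1 library b alone.

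Neutrophil markers also differed between the libraries of a day. The 10 markers summed to 640.0, 3632, 428, 434 and 486 CPM in day 3 libraries a to e, against 843, 2204 and 3776 CPM in day 1 libraries a to c. The library with the lowest effectors of day 3, b, and the library lowest for 25 effectors at day 1, c, had the most neutrophil marker RNA of their days. Without day 3 b and day 1 c, an alternative chosen after seeing the data, the median log2 fold change of the effectors was -0.96, 31 of 36 were lower at an unadjusted p of 0.05 (86.1%, against 11.4% of all genes) and 31 had days apart (86.1%, against 19.7% of all genes). Leaving out day 1 c by construction frees the 7 effectors that overlapped through it alone. The summed inflammatory monocyte markers were lower at day 3 without overlap, and the macrophage sum, with Lyz2, was higher without overlap. Of the 8 inflammatory monocyte markers, 6 had a log2 fold change below 0. The exceptions were Ccr2 (0.03) and Fn1 (0.35), and Chil3 averaged 148 CPM at day 3 and 1063 CPM at day 1. Fibroblast markers summed to between 57.6 and 125.0 CPM at day 3 and between 9.49 and 39.5 CPM at day 1, and B and plasma cell markers, mostly Ighm, to between 105 and 213 CPM at day 3 and between 32.5 and 103 CPM at day 1. Endothelial cell markers summed to between 13.4 and 27.2 CPM at day 3 and between 29.0 and 67.0 CPM at day 1. None of these 5 sums overlapped (two-sided exact permutation p = 0.0357 for each, the smallest that 5 libraries against 3 can give, adjusted p of 0.0786 over 11 marker lists). The part of these cell markers in the effector differences was not tested.

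**Figure D4:**
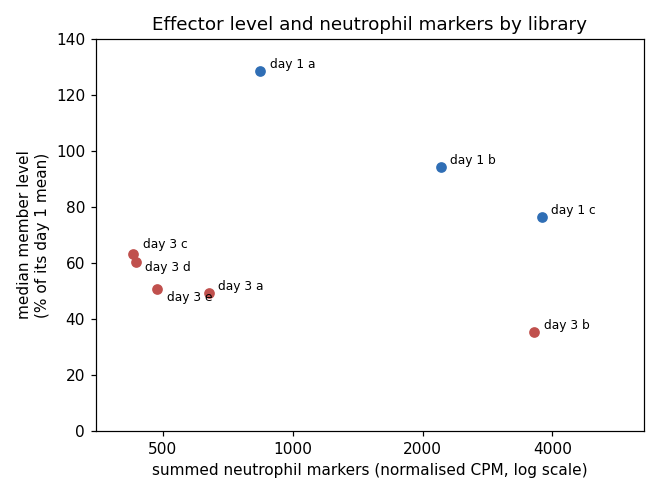
Median effector level in each library, as a percentage of each gene's day 1 mean (vertical axis), against the summed normalised CPM of 10 neutrophil markers (horizontal axis, log scale), with day 3 libraries in red and day 1 libraries in blue. The day 3 points lie between 35.2 and 63.2% and the day 1 points between 76.3 and 129%; within each day the library with the most neutrophil marker RNA, day 3 b and day 1 c, has the lowest effectors.

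The pathway upstream of the effectors was listed apart from them, as 53 genes for interferons, receptors, kinases, transcription factors, sensors, adaptors and negative regulators, of which 34 were tested. None passed at an adjusted p of 0.05 in edgeR. At an unadjusted p of 0.05, 7 were lower and 1 was higher, against 1621 lower (10.5%) and 793 higher of all 15371 genes. At an adjusted p of 0.05 DESeq2 called 5 lower and 1 higher, and limma voom 3 lower and 1 higher. Over all genes, DESeq2 called 4.29% lower and limma voom 4.40%. The median log2 fold change of the 34 was -0.36. Of 17 type I interferon genes, 9 had no count in any library and 1, Ifnb1 (interferon beta), was tested. Ifnb1 had 5.35, 2.44, 1.42, 1.07 and 1.01 CPM at day 3, against 0, 9.41 and 0.874 CPM at day 1. The library with the highest effectors, day 1 a, thus had no Ifnb1 count. A floor of 3 counts equals 0.0755 CPM there, and the limit lies higher if both mates of a read pair were counted. For Ifnb1, edgeR gave a log2 fold change of -0.60 ± 1.51 (SE) and an adjusted p of 0.904. Ifng, Ifnl2 and Ifnl3 had no count in any library.

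Of the receptors and kinases, Ifnar1, the receptor chain that Tyk2 binds, had 119, 243, 181, 184 and 223 CPM at day 3, against 349, 247 and 275 CPM at day 1. Its days were apart by little, with a log2 fold change of -0.61 ± 0.23 (adjusted p of 0.234 in edgeR). The days were also apart in Ifnar2, which averaged 97.5 ± 7.11 CPM at day 3 and 121 ± 12.7 CPM at day 1 (SD, n = 5 and 3; log2 fold change -0.31 ± 0.15). Jak1 averaged 210.0 ± 14.8 CPM at day 3 and 248 ± 24.4 CPM at day 1, and Tyk2 5.84 ± 2.91 CPM at day 3 and 8.26 ± 7.69 CPM at day 1, both with overlap. The exception in direction was Ifngr1, a receptor chain for interferon gamma and not for type I interferon, chosen for mention after its values were seen. Ifngr1 had 526, 643, 738, 764 and 758 CPM at day 3, against 457, 385 and 273 CPM at day 1, every day 3 library above every day 1 library. Its log2 fold change was 0.88 ± 0.21 (adjusted p of 0.0829 in edgeR).

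Among the transcription factors, Irf7 had the smallest p of those the rule names, with 323, 188, 332, 430.3 and 337 CPM in day 3 libraries a to e, against 1119, 773 and 736 CPM in day 1 libraries a to c. The days were apart, day 3 library b was lowest and day 1 library a highest. For Irf7 the log2 fold change was -1.44 ± 0.25 and the adjusted p 0.0630 in edgeR. Stat2 and Irf9 are subunits of the complex that binds the ISRE. Stat2 had 12.8, 8.95, 32.5, 26.0 and 32.0 CPM at day 3, against 73.4, 32.3 and 109 CPM at day 1. Irf9 had 122, 154, 133, 134 and 149.5 CPM at day 3, against 181, 220.2 and 142 CPM at day 1. Both overlapped between the days, with log2 fold changes of -1.67 ± 0.49 for Stat2 (adjusted p of 0.122) and -0.39 ± 0.18 for Irf9 (0.326, both edgeR, ± SE). Irf3, which is not itself strongly induced by interferon, averaged 24.0 ± 6.16 CPM at day 3 and 27.2 ± 11.6 CPM at day 1 (log2 fold change -0.18 ± 0.35), and Socs1, a feedback inhibitor of Jak kinases, averaged 9.71 ± 5.78 CPM at day 3 and 23.2 ± 28.4 CPM at day 1 (log2 fold change -1.26 ± 0.78). A difference between the fold changes of these genes was not tested.

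**Figure D5:**
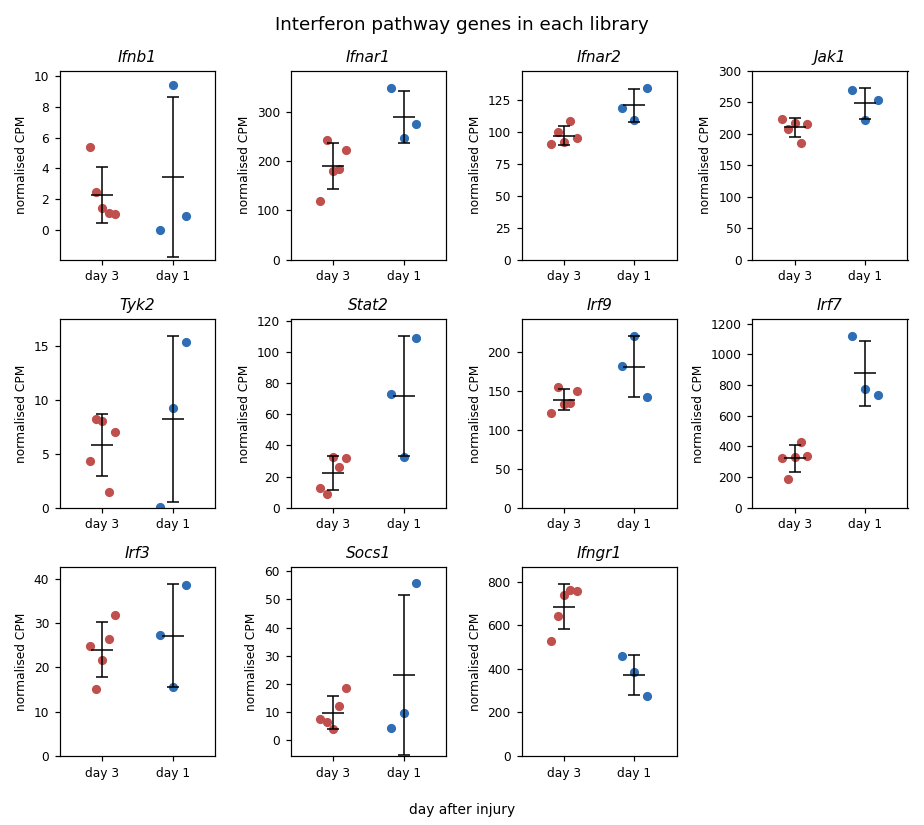
Normalised CPM of 11 interferon pathway genes in each library, with day 3 (red, n = 5) left of day 1 (blue, n = 3); horizontal lines are means and bars are ± SD. Irf7 and Ifnar1 have every day 3 point below every day 1 point, Ifngr1 has every day 3 point above every day 1 point, and Stat2, Irf9, Irf3, Ifnb1, Tyk2 and Socs1 overlap.

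Further interferon-stimulated genes outside the effector set were counted as well. Of 66 tested, 0 passed at an adjusted p of 0.05 in edgeR, and at an unadjusted p of 0.05, 33 were lower and 2 higher. At an adjusted p of 0.05 DESeq2 called 21 lower and 1 higher, and limma voom 11 lower. The shares of all genes lower at day 3 were 10.5% at the unadjusted p, 4.29% in DESeq2 and 4.40% in limma voom. One of the 66, Fcgr1, is also among the macrophage markers. The median log2 fold change was -0.72, and 21 of the 66 had all day 3 values below all day 1 values, against 8.76% of all genes. The smallest p belonged to Lgals9 (galectin-9), with 236, 229, 269.5, 312 and 318 CPM at day 3, against 726, 587 and 608 CPM at day 1, a log2 fold change of -1.23 ± 0.17 and an adjusted p of 0.0579. Uba7, the enzyme that activates Isg15 for joining, had 24.7, 27.8, 36.1, 20.4 and 27.7 CPM at day 3, against 75.8, 67.3 and 68.4 CPM at day 1, and Helz2, a helicase and nuclear receptor coactivator, 15.9, 10.4, 20.1, 16.0 and 21.5 CPM at day 3, against 57.0, 50.6 and 52.2 CPM at day 1. Of both the days were widely apart, each with an adjusted p of 0.0603 in edgeR. Of 15 tested GTPase genes of the GBP and IRG families, which act against pathogens inside vacuoles and answer mainly to interferon gamma, 5 were lower at an unadjusted p of 0.05, 0 at an adjusted p in edgeR, 3 in DESeq2 and 1 in limma voom, and 2 had days apart. Irgm2 averaged 27.1 ± 7.23 CPM at day 3 and 56.2 ± 6.76 CPM at day 1, Gbp9 54.9 ± 6.72 CPM at day 3 and 118 ± 49.2 CPM at day 1 and Gbp2 141 ± 27.1 CPM at day 3 and 294 ± 155 CPM at day 1 (SD, n = 5 and 3), with Gbp9 and Gbp2 overlapping through day 1 library c. The median log2 fold change of the 15 was -0.69. Beside the counts of these GTPase genes, 10.5% of all genes were lower at the unadjusted p and 8.76% had days apart with day 3 lower. DESeq2 called 4.29% of all genes lower and limma voom 4.40%.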

How the data were processed

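The authors deposited raw counts per gene, with 1 column for each of the 8 libraries (5 at day 3, 3 at day 1), and, per the file headers, they came from featureCounts 1.6.0 with Ensembl release 106 on GRCm39. No strand, read-pair or multi-position option stands in that command, and 73.0 to 86.0% of counts from 2 to 20 were even, so both mates were probably counted. The submitters' processing notes list Trimmomatic and DESeq2, with an aligner not given in the sources used here. Letters in the command differ in part from those of the columns and serve as names only. Totals ran from 41566151 to 60289310, and a floor of 3 counts, covering counting error only, equals 0.0501 to 0.0755 normalised CPM. This floor treats counts as independent, so it is too low if both mates were counted.

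Symbols were matched for 52081 of 55414 genes (94.0%), and 0 columns belonged to other samples. Genes passing filterByExpr (minimum count 10) were scaled with TMM and tested by edgeR 4.0.16 (quasi-likelihood, two-sided, Benjamini-Hochberg over 15371 genes, threshold 0.05) in R 4.3.3. Fold changes are day 3 minus day 1 on the log2 scale, ± SE. The quasi-likelihood test gives no SE itself. Each SE was derived as the absolute log2 fold change divided by the square root of the F statistic. CPM per kilobase divides CPM by exon length. Alternatives were DESeq2 1.42.0, limma 3.58.1 voom, RLE scaling, totals alone, no filter, a filter that asked for 1 CPM throughout 1 of the days and for 5 CPM on average, halved counts, leaving out each library, and a fit of letters a to c with or without blocking on the letter. The fits were tested on simulated data. Marker sums were compared by exact permutation. Promoters and motifs come from the RefSeq promoter table of GRCm38.p6, a build whose coordinates were kept apart from those of the counts. Figures were drawn with matplotlib 3.10.9 in Python 3.11.15.

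The members, lists and tests were chosen with earlier results of these data known. Every member is named; in each role group the 3 with the smallest p and the one with the highest level per kilobase are given by library. Fixed pathway genes and the 3 smallest p of each further list are given by library or by mean and SD. Ikbke, Ube2l6, the PYHIN genes, Ifngr1, Oas1b, Oas1c, Ifitm1, Ifitm2, Ifitm6, Ccr2, Fn1 and Chil3 were added for mention after their values were seen. One item that the rule names is not reported here.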

Additional observations from a re-analysis of the deposited data

Results flagged for a closer look

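In 3 of 11 marker lists, 1 day 3 library stood far from the other 4, and in each it was library b. Its gap to the nearest library, as a share of the range of day 3, was above the critical value of 0.71 for 5 samples. Its neutrophil markers summed to 3632 CPM, against 428 to 640.0 CPM in the other 4. Its conventional dendritic cell markers summed to 238 CPM, against 70.9 to 80.2 CPM, and its keratinocyte markers to 42.8 CPM, against 1.28 to 7.604 CPM. By the same measure 0 of 36 effectors had a library far from the rest of day 3. Chance alone sets a library apart in about 1 of 20 groups. The groups of 3 day 1 libraries are too small for this measure.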

How the results depend on the processing

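The median log2 fold change of the 36 effectors stayed below 0 under every alternative run, from -1.01 when day 1 c was left out to -0.69 when day 1 a was. Between 25 and 32 effectors were lower at an unadjusted p of 0.05, and between 22 and 31 had days apart where that was counted. The share of all genes moved as well. Days were apart, with day 3 lower, for 8.76% in the main fit and for 19.7% without day 3 b and day 1 c, where 31 effectors were apart. At the unadjusted p the share lower at day 3 was 10.5% and 11.4% in the same settings. For the other settings these shares are not given, so the effector counts there cannot be set against all genes. The count past an adjusted p of 0.05, 0 in edgeR as planned, was 22 with DESeq2, 13 with limma voom, 22 with no filter on low counts, 6 with the stricter filter and 2 with halved counts (Isg15 and Cmpk2), and 19 at a threshold of 0.1. Leaving out 1 library gave 0 to 1. Fewer genes, 8142, were tested with the stricter filter; with no filter 38518 were tested and the median of all genes was -1.40, below that of the effectors. Otherwise the cause was not tested. Over left-out libraries the log2 fold change of Ifit2 ran from -1.28 when day 1 c was left out to 0.039 when 1 a was left out, and that of Ifi44 from -0.48 (no day 3 c) to 0.097 (no day 1 b).

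Libraries of the same letter did not deviate together from their days (correlations of 0.0891 for a, 0.0296 for b and -0.0321 for c), so the letters were not used as pairs; whether they mark a shared source was not settled. With the letters a to c as a replicate block, 0 effectors passed the adjusted test, 27 the unadjusted one, 25 had days apart and the median was -0.91. Without the block on the same 6 libraries the values were 0, 27, 25 and -0.92. The shares of all genes are not given for these 6 libraries, so 27 and 25 cannot be set against the counts from 8 libraries.

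With 3 pools at day 1, 1 library can decide a range: of 14 effectors with overlapping days, 7 overlapped through day 1 c alone. All effectors passed the filter on low counts. For the interferon genes at 0, a level under the floor of 3 counts was not detectable at this depth.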

Other observations

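The PYHIN genes of chromosome 1, DNA-binding relatives of Ifi204 taken from the list of further interferon-stimulated genes and chosen for mention after their values were seen, ran from a log2 fold change of -1.21 for Ifi205 to -0.08 for Mndal. Ifi211 had 205, 145, 206, 183 and 149 CPM at day 3, against 408, 259 and 294 CPM at day 1, with the days apart and an adjusted p of 0.0829 in edgeR. Ifi209 averaged 340.5 ± 86.8 CPM at day 3 and 628 ± 206 CPM at day 1 (SD, n = 5 and 3), also apart. Ifi205 averaged 182 ± 63.0 CPM at day 3 and 421 ± 128 CPM at day 1 (log2 fold change SE of 0.28), and its days overlapped through day 3 library a and day 1 library c. Mndal averaged 164 ± 42.7 CPM at day 3 and 173 ± 27.8 CPM at day 1, with a log2 fold change of -0.08 ± 0.24 (adjusted p of 0.923). Reads shared among these close relatives make their division uncertain.

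Of the enzymes that join Isg15 to its targets, Uba7 was given above, with its days apart. Ube2l6, the conjugating enzyme that follows it, had 307, 176, 247, 244 and 191 CPM at day 3, against 422, 316 and 146 CPM at day 1, and its days overlapped, with a log2 fold change of -0.34 ± 0.32 (adjusted p of 0.687 in edgeR). Whether the difference of Ube2l6 departs from that of Uba7 was not tested. Ikbke, a kinase that activates Irf3 and Irf7, had 28.5, 36.8, 21.3, 22.3 and 18.9 CPM at day 3, against 94.1, 52.3 and 107 CPM at day 1, all day 3 values below all day 1 values, and an adjusted p of 0.0620.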
